A study of Mus musculus with 8 samples.

Results

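The matrix proteases of the mouse and their inhibitors were followed through 8 RNA-seq libraries. Members were all genes of the table whose symbol was Mmp, Timp or Adamts followed by a number (and, for Mmp, an optional a or b), which gave 46 of 20215 genes: 23 Mmp, 4 Timp and 19 Adamts genes. A level of 1 RPKM (reads per kilobase of transcript, scaled by the mapped reads of the library) was reached in at least 1 library by 38 of the 46 (17 Mmp, 4 Timp and 17 Adamts), a level of 5 by 22 and a level of 10 by 13. The members closest above 1 were Timp4 (highest value 1.05), Adamts20 (1.07) and Mmp28 (1.17), and those closest below it were Mmp25 (0.803) and Adamts16 (0.710).

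RNA came from E14 mouse embryonic stem cells (ESCs), either wild type (WT) or labelled Uhrf1 KO, and from embryoid bodies (EBs) that each line formed after 1, 2 or 3 weeks. Uhrf1 is a nuclear protein needed to copy DNA methylation at replication. ESCs grew with leukemia inhibitory factor on gelatin or on plates coated with mouse embryonic fibroblasts (MEFs), and EBs were started in hanging drops and then kept as floating spheroids, with no sort of cells described. Each of the 8 groups was 1 library from 1 cell line, both lines having come from another laboratory, so differences between 2 libraries have no replicate check, and line, genotype, culture and library cannot be told apart.

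Matrix metalloproteinases (MMPs) and ADAMTS enzymes are zinc proteases that cut collagens, proteoglycans and other matrix proteins. Most are secreted as inactive precursors, while the membrane-type MMPs are anchored at the cell surface, where MMP14 activates the MMP2 precursor. The 4 tissue inhibitors of metalloproteinases (TIMPs) bind the active site of these enzymes, and TIMP2 also takes part in the activation of MMP2.

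What the Mmp and Adamts members share beyond their names is the zinc-binding stretch of the catalytic domain, and its coding bases are shown here for members with high levels or large differences between genotypes. Capitals mark the codons of the 3 histidines that hold the zinc, of the catalytic glutamate, and of the residue 3 places before the last histidine, which is glycine in MMPs. The stretches were read from GENCODE M1 transcripts (mm9).
Mmp2: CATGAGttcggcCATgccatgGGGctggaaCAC
Mmp14: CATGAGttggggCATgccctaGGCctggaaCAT
Mmp3: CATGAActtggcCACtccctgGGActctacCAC
Adamts1: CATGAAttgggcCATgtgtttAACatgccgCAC
Adamts2: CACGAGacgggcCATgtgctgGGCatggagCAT
The stretch with glycine was found in 23 of 23 Mmp members. Of 19 Adamts members, 13 had glycine there and 5 had asparagine (Adamts1, Adamts4, Adamts9, Adamts15 and Adamts20, all among the proteoglycanases), and no match was found in the transcript read for Adamts8. The 4 Timp transcripts, which encode no protease, had no match.

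Estimated depth was 169000000 and 177000000 reads for the ESC libraries and 12800000 to 45800000 for the EB libraries, and 10766 to 12585 genes reached RPKM 1 per library. Uhrf1 itself was at RPKM 78.8, 43.8, 36.8 and 41.0 in WT and 45.2, 27.1, 34.6 and 31.0 in the libraries labelled KO (ESC and weeks 1 to 3), which is 57.4%, 61.9%, 94.1% and 75.6% of WT. These values cover all exons and say nothing of whether the transcript is intact, so KO is used below as the label of these libraries and not as a genotype that these values show. The summed RPKM of 5 pluripotency markers was 1062 and 1097 in ESCs, 27.0 and 20.9 at week 1, 56.1 and 144 at week 2, and 309 and 265 at week 3 (WT and KO), so week 3 EBs held pluripotency RNA. The 10 fibroblast and mesenchyme markers summed to 17.9 and 13.0 in ESCs and to 110 to 1790 in EBs. In bulk RNA, fewer cells of a type and less RNA per cell cannot be told apart.

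More members were detected in late EBs than in ESCs. At RPKM 1 or more, 15 members were found in WT ESCs, 17 at week 1, 28 at week 2 and 30 at week 3, and 15, 19, 29 and 30 in the KO libraries, so that 16 of 46 were under it in each week 3 library. Of the 38 members that reached this level, 9 did so in all 8 libraries and 22 only in EBs. The library with the highest value was at week 3 for 18 of 38 members (47.4%), at week 2 for 13 (34.2%), at week 1 for 4 (10.5%) and an ESC library for 3 (7.89%). Among all 13964 genes at RPKM 1 or more in some library, the shares were 21.4%, 24.3%, 22.6% and 31.7%. The heatmap of members and libraries gives each value.

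**Figure D1:**
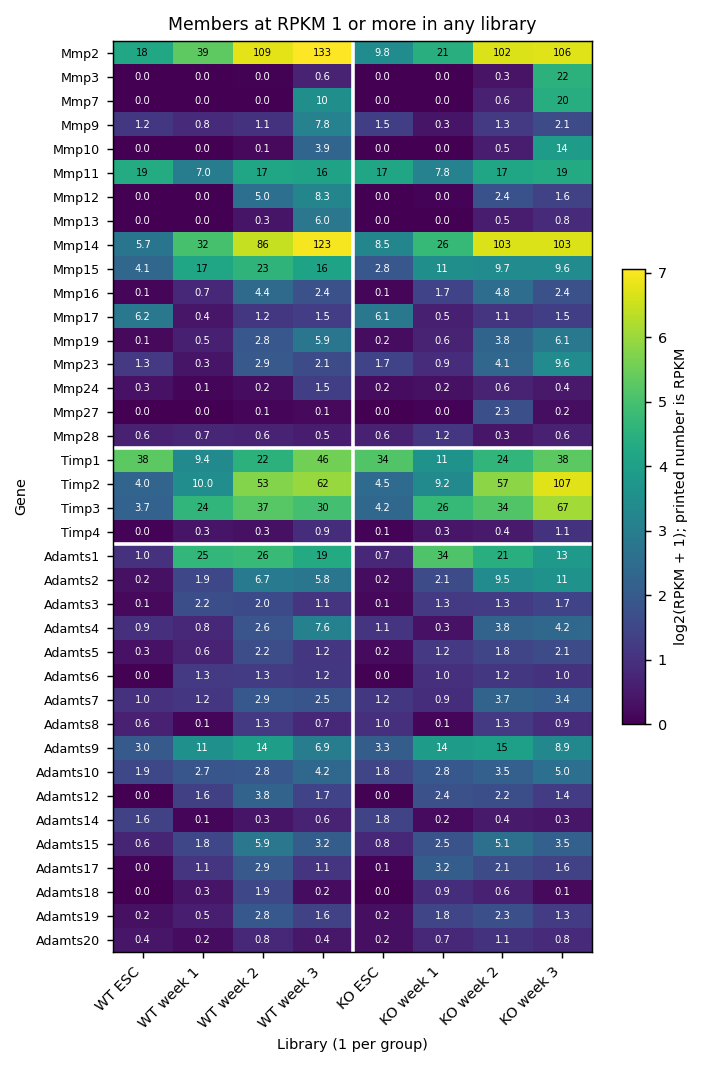
RPKM of the 38 members (rows, grouped as Mmp, Timp and Adamts) in the 8 libraries (columns, 1 per group), with colour on the scale log2(RPKM + 1) and the RPKM printed in each cell. Mmp2 and Mmp14 are the brightest rows, and most rows are dark in the ESC columns and brighter at weeks 2 and 3.

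All RPKM series that follow are in the order ESC, week 1, week 2 and week 3. The gelatinase Mmp2, which cuts basement membrane collagen and denatured collagen, had the highest level of any member, with RPKM 17.7, 38.7, 109 and 133 in WT and 9.79, 21.0, 102 and 106 in KO. It was lower in KO at all 4 stages, by 1.81-fold in ESCs (95% interval 1.75 to 1.87, counting error only, as for all intervals below) and 1.84-fold at week 1 (1.71 to 1.99). Mmp9, the other gelatinase, was at 1.22, 0.838, 1.06 and 7.85 in WT and 1.47, 0.331, 1.30 and 2.08 in KO. It was near 1 in most libraries and stood out only in WT week 3, where it was 3.78-fold higher than in KO (3.12 to 4.61).

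Among the membrane-type enzymes, Mmp14, a collagenase of the cell surface, was also highest at weeks 2 and 3, with RPKM 5.65, 31.5, 86.1 and 123 in WT and 8.55, 25.9, 103 and 103 in KO. The WT and KO libraries of a stage lay less than 1.5-fold apart for Mmp14 on the RPKM + 1 scale. Mmp15 was at 4.07, 16.9, 23.4 and 16.2 in WT and at 2.78, 10.6, 9.65 and 9.58 in KO. It was lower in KO at each stage, by 1.60-fold at week 1 (1.47 to 1.75), 2.42-fold at week 2 (2.24 to 2.62) and 1.69-fold at week 3 (1.56 to 1.84). Mmp16 was found mainly at weeks 2 and 3, with 0.098, 0.724, 4.42 and 2.36 in WT and 0.068, 1.65, 4.81 and 2.39 in KO. Mmp17, attached to the membrane by a lipid anchor, had the opposite course, with 6.16, 0.353, 1.23 and 1.45 in WT and 6.08, 0.535, 1.1 and 1.46 in KO, so that both ESC libraries lay above all 6 EB libraries. Mmp24 was highest in WT week 3 (1.5), and its exons overlap those of BC029722 (7.14 to 9.17 in the 8 libraries), which this unstranded library preparation cannot tell apart from it.

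Mmp11, known as stromelysin 3 although it cuts few matrix proteins, was among the few members with a high level in ESCs, with 19.3, 7.02, 17.0 and 15.9 in WT and 17.1, 7.81, 17.1 and 19.0 in KO. Its lowest values were the 2 week 1 libraries. Mmp19 was highest at week 3 in both lines, with 0.123, 0.547, 2.80 and 5.91 in WT and 0.168, 0.624, 3.82 and 6.11 in KO. Mmp23, a membrane protease that lacks the usual precursor switch, was at 1.26, 0.33, 2.92 and 2.12 in WT and 1.70, 0.857, 4.08 and 9.60 in KO. Its KO week 3 value was 4.52-fold the WT value (3.59 to 5.69), and the KO library was the higher one at all 4 stages. Mmp28 was highest in KO week 1 (1.17). Its exons overlap those of 1700020L24Rik (0.704 to 1.26 in the 8 libraries), which was also highest in that library, and reads of the pair cannot be told apart there. Mmp8, Mmp20, Mmp21 and Mmp25 did not reach RPKM 1, and Mmp1a and Mmp1b, grouped here with the collagenases, were listed at 0 in all 8 libraries. Whether reads that match both genes were left uncounted was not tested.

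The 3 largest differences between the lines (Mmp3, Mmp13 and Mmp12 at week 3, with 3.83, -1.93 and -1.82 on the log2 scale of RPKM + 1, KO minus WT) were found in a run of Mmp genes on chromosome 9, a grouping made after the values were seen. In GENCODE M1 (mm9) 10 members lie between positions 7272514 and 7699585 of chromosome 9, a span of 427 kb with no other gene of the table between them: Mmp13, Mmp12, Mmp1b, Mmp3, Mmp1a, Mmp10, Mmp8, Mmp27, Mmp20 and Mmp7, in this order. Their summed RPKM (WT, then KO) was 0.0307 and 0.0378 in ESCs, 0.0403 and 0.152 at week 1, 5.56 and 6.65 at week 2, and 29.6 and 59.6 at week 3. The promoters of the 5 members that reached RPKM 5 are shown because in each the same 7 letters lie close before the start site. The sequences are RefSeq promoters on GRCm38.p6, from 250 bases before the start to 50 after it, on the gene's strand, and capitals mark TGAGTCA or its reverse complement TGACTCA, the sequence that AP-1 (Fos and Jun proteins) is known to bind.
Mmp3 (chr9:7445572-7445871, plus strand): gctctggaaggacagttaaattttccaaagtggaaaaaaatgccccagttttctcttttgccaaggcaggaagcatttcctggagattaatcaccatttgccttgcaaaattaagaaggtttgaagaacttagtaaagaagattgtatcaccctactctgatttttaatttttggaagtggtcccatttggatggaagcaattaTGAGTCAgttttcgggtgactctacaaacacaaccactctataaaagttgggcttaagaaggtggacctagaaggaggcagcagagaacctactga
Mmp10 (chr9:7502092-7502391, plus strand): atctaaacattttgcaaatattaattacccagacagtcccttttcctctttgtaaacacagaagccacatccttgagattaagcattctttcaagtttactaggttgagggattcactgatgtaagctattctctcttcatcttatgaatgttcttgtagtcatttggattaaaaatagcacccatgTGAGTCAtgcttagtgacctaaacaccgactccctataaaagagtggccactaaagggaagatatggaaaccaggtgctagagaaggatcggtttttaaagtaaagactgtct
Mmp7 (chr9:7691840-7692139, plus strand): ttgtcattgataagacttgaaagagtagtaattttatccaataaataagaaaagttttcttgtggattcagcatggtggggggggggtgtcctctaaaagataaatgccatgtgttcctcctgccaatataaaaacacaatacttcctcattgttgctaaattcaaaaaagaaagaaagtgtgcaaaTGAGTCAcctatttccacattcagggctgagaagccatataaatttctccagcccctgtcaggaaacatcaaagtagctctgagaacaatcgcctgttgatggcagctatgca
Mmp12 (chr9:7347124-7347423, plus strand): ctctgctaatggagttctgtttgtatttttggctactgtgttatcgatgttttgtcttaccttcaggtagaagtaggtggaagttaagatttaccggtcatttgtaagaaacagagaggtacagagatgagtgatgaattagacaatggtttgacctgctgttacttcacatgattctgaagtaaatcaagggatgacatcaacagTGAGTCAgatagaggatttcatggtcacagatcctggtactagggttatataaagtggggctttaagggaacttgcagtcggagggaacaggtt
Mmp13 (chr9:7272264-7272563, plus strand): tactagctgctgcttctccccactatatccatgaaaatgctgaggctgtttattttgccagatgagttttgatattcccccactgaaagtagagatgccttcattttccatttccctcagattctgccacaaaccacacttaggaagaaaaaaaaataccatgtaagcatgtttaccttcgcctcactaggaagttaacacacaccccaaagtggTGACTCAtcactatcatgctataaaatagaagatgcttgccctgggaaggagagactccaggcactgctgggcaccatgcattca
The first base of the match lay 46 bases before the start in Mmp3, 63 in Mmp10, 63 in Mmp7, 44 in Mmp12 and 35 in Mmp13. Both strands were searched, and no other motif was searched. Counted by gene, with a match in any of its promoters, 7 of the 10 genes of the run had one. Mmp1a and Mmp1b were among them, and Mmp8, Mmp20 and Mmp27 were not. The same count gave 7 of all 32 members with a promoter in the RefSeq table (21.9%) and 1607 of 27025 genes with a promoter (5.95%). Counted by promoter, a match was found in 1709 of 32851 (5.20%). Mmp7 and Mmp12 each had another promoter in the table without it. A match is a run of letters and not evidence of binding.

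Mmp3, stromelysin 1, which cuts proteoglycans and activates other MMP precursors, had RPKM 0.0033, 0, 0.035 and 0.642 in WT and 0.0032, 0, 0.291 and 22.3 in KO. Only KO week 3 stood out, at 34.7-fold the WT week 3 value (25.2 to 48.1), from an estimated 735 reads against 41.6. Mmp10, stromelysin 2, was at 0.0034, 0, 0.129 and 3.94 in WT and 0.0067, 0, 0.486 and 14.1 in KO. Its KO week 3 value was 3.59-fold the WT value (3.07 to 4.22). Mmp7 (matrilysin), a small MMP made mainly by epithelia, was listed at 0 in 5 libraries and was at 10.5 in WT week 3, 0.564 in KO week 2 and 20.1 in KO week 3. The week 3 values were 1.92-fold apart (1.67 to 2.21), and in WT week 2 a count of 3 reads would have given 0.0875.

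Mmp12 and Mmp13 differed in the other direction. Mmp12, the elastase of macrophages, was at 0.011, 0.011, 4.98 and 8.27 in WT and 0.013, 0.041, 2.43 and 1.63 in KO. WT exceeded KO by 2.05-fold at week 2 (1.75 to 2.40) and 5.09-fold at week 3 (4.27 to 6.15). The 10 macrophage markers of the table summed to 425 and 233 at week 2 and to 160 and 107 at week 3 (WT and KO), with 10 and 8, then 9 and 6, of the 10 at RPKM 1 or more. All 10 were lower in KO at week 2. At week 3, 9 were lower and Aif1 was higher (0.218 in WT and 0.365 in KO). Lyz2, the largest part of these sums, was at 176 and 131 at week 2 and at 87.6 and 65.8 at week 3. C1qa, a complement gene of macrophages, was at 0, 0.088, 37.0 and 11.3 in WT and 0, 0.08, 15.7 and 3.68 in KO, and the part of these cells in the Mmp12 difference, or in that of Mmp9 at week 3, was not tested. Mmp12 also overlaps Mmp1b on the opposite strand.

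Mmp13, a collagenase of cartilage and bone, was at 0.0064, 0.0078, 0.318 and 5.96 in WT and 0.0062, 0, 0.452 and 0.832 in KO, and WT week 3 was 7.16-fold above KO (5.19 to 10.0). The 10 cartilage and bone markers summed to 1109 in WT and 459 in KO at week 3, with 4 of 10 at RPKM 1 or more in each. Nearly all of that sum was Spp1 (1091 and 443). The others at RPKM 1 or more were Sox9 (8.22 and 7.02), Col2a1 (6.11 and 5.57) and Runx2 (1.52 and 1.12). Of all 10, 8 were lower in KO and 2 (Bglap, at 0.298 and 0.802, and Matn1) were higher, and Comp was listed at 0 in KO. The part of such cells in the Mmp13 difference was not tested. Mmp27 was highest in KO week 2 (2.34), against 0.0967 in WT. The ratio was 24.2 (10.4 to 66.3), from an estimated 84.3 and 5.9 reads, which may be overstated. The nearest expressed genes on either side did not show such differences at week 3: Dcun1d5 was at 54.1 and 56.6, and Tmem123 at 46.2 and 57.9, in WT and KO.

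**Figure D2:**
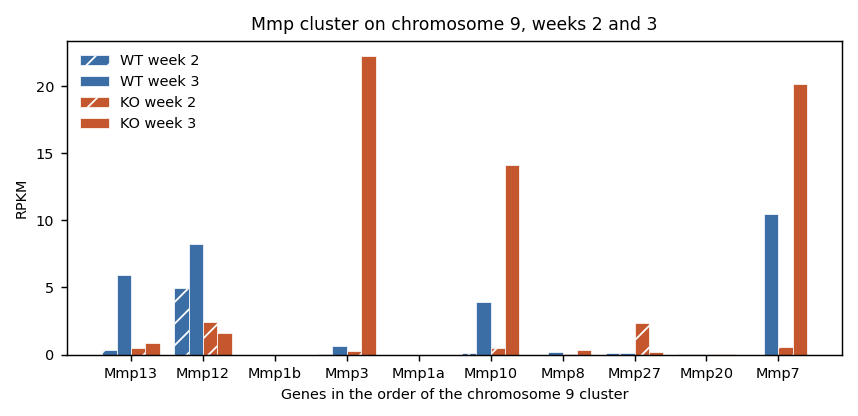
RPKM (vertical axis) of the 10 Mmp genes of the chromosome 9 run, in map order, in the week 2 (hatched) and week 3 (plain) libraries of WT (blue) and KO (orange), 1 library per bar. KO week 3 has the tallest bars for Mmp3 (22.3), Mmp7 (20.1) and Mmp10 (14.1), while WT week 3 has the tallest for Mmp12 (8.27) and Mmp13 (5.96).

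Of the 4 inhibitors, 3 reached RPKM 46.1 or more in some library. Timp1 had RPKM 38.0, 9.35, 22.3 and 46.1 in WT and 34.3, 11.2, 24.0 and 38.1 in KO, with its lowest values at week 1. Timp2 was at 3.98, 9.98, 53.0 and 61.6 in WT and 4.52, 9.25, 56.6 and 107 in KO, and its KO week 3 value was 1.73-fold the WT value (1.68 to 1.79). Timp3, which stays bound to the matrix and also inhibits ADAMTS enzymes, was at 3.67, 24.3, 36.9 and 30.1 in WT and 4.25, 25.6, 34.4 and 67.5 in KO. At week 3 it was 2.24-fold higher in KO (2.16 to 2.33), whereas the lines lay less than 1.5-fold apart at the other stages. Syn3, whose exons overlap those of Timp3, was at 0.163 to 1.31. Timp4 was highest in KO week 3 (1.05).

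Together with Timp2 and Timp3, the 7 parietal endoderm markers were higher in KO week 3, with a sum of 1179 against 690.1 and all 7 at RPKM 1 or more in both. Sparc was the largest part of these sums (830 against 463). In ESCs all 7 were also higher in KO (416 against 290), where Timp2 and Timp3 lay less than 1.5-fold apart. At weeks 1 and 2, 4 were higher and 3 lower. Of the 10 mesenchyme markers at week 3, 4 were higher and 6 lower in KO (sums of 1262 against 1131, with Dcn at 381 against 231). The part of these cells in the Timp differences was not tested. The summed RPKM of the Timp genes was 45.7, 44.0, 112.5 and 139 in WT and 43.1, 46.4, 115 and 213 in KO. The summed RPKM of the Mmp genes was 57.2, 97.9, 255 and 340.5 in WT and 49.1, 70.9, 255 and 319 in KO, and Mmp2 and Mmp14 made up 40.8%, 71.7%, 76.7% and 75.4% of it in WT and 37.3%, 66.1%, 80.4% and 65.2% in KO. The ratio of the Mmp sum to the Timp sum was thus 1.25, 2.23, 2.26 and 2.46 in WT and 1.14, 1.53, 2.21 and 1.5 in KO. RPKM is per length of transcript, so these sums count RNA and not protein or activity. The ratios of the lines were closest at week 2 and farthest apart at week 3.

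**Figure D3:**
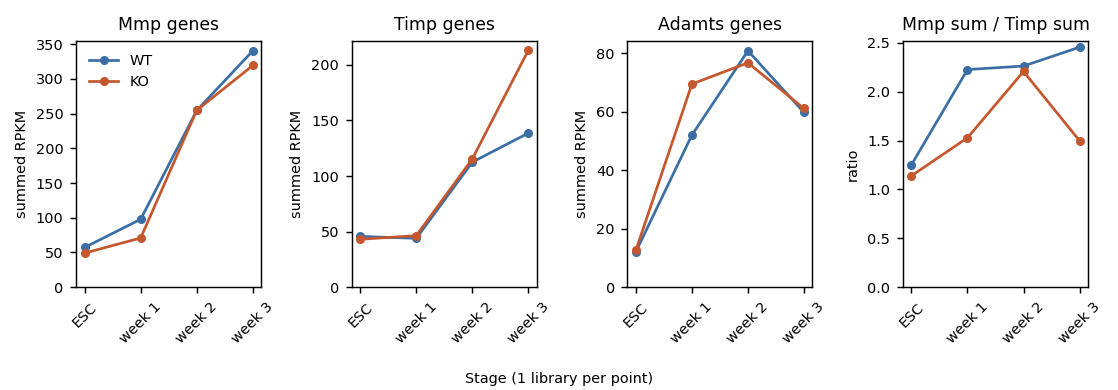
Summed RPKM of the 23 Mmp, 4 Timp and 19 Adamts genes and the ratio of the Mmp to the Timp sum (vertical axes) at the 4 stages, for WT (blue) and KO (orange), 1 library per point. The Timp sum separates at week 3 (139 in WT and 213 in KO), and the ratio there is 2.46 and 1.5.

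The Adamts genes had lower levels, apart from the proteoglycanases Adamts1 and Adamts9. Adamts1, which cuts aggrecan and versican, was at 1.01, 24.9, 25.9 and 18.9 in WT and 0.721, 34.0, 21.1 and 13.0 in KO. It was already near its highest level at week 1, before most Mmp genes. Adamts9 had RPKM 3.04, 10.7, 14.2 and 6.91 in WT and 3.26, 13.97, 15.0 and 8.91 in KO, with its highest values at weeks 1 and 2. Adamts15 was at 0.648, 1.85, 5.92 and 3.25 in WT and 0.755, 2.52, 5.08 and 3.48 in KO, highest at week 2 in both. Adamts4, an aggrecanase, was at 0.917, 0.762, 2.65 and 7.65 in WT and 1.13, 0.263, 3.77 and 4.16 in KO, and WT exceeded KO by 1.84-fold at week 3 (1.63 to 2.08). The other aggrecanase, Adamts5, was at 0.265, 0.63, 2.20 and 1.18 in WT and 0.153, 1.24, 1.79 and 2.14 in KO. Adamts8 was highest in WT week 2 (1.32) and Adamts20 in KO week 2 (1.07). The summed RPKM of all Adamts genes was 12.1, 52.0, 80.8 and 59.7 in WT and 12.6, 69.4, 76.7 and 61.1 in KO, highest at week 2 in both lines.

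Adamts2, which removes the amino-terminal propeptide of fibrillar procollagens, was at 0.244, 1.90, 6.73 and 5.82 in WT and 0.167, 2.09, 9.53 and 11.3 in KO. Its KO week 3 value was 1.93-fold the WT value (1.80 to 2.08). Adamts3, its relative with the same activity, was at 0.135, 2.23, 1.98 and 1.07 in WT and 0.115, 1.29, 1.32 and 1.66 in KO. Adamts14, the remaining procollagen N-proteinase, had its highest values in ESCs, with 1.65, 0.085, 0.321 and 0.631 in WT and 1.75, 0.155, 0.429 and 0.344 in KO.

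Of the other Adamts members, Adamts10, which binds fibrillin, was present in all libraries, with 1.89, 2.71, 2.80 and 4.24 in WT and 1.80, 2.84, 3.49 and 5.04 in KO. Adamts6 was at 0.023, 1.29, 1.35 and 1.22 in WT and 0.021, 0.989, 1.23 and 1.04 in KO, near absent in ESCs and flat over the EB weeks. Adamts7, which cuts cartilage oligomeric matrix protein, was at 1.03, 1.17, 2.85 and 2.54 in WT and 1.21, 0.902, 3.73 and 3.35 in KO, and shares exon sequence with Tbc1d2b (2.07 to 13.9), so that reads of the pair cannot be told apart there. Adamts12 was at 0.016, 1.55, 3.75 and 1.68 in WT and 0.02, 2.38, 2.23 and 1.40 in KO. Adamts17 was at 0.041, 1.15, 2.93 and 1.1 in WT and 0.057, 3.23, 2.05 and 1.64 in KO, with its highest value in KO week 1. Adamts19 was at 0.245, 0.497, 2.83 and 1.56 in WT and 0.216, 1.76, 2.31 and 1.33 in KO. Its highest values were at week 2 in both lines. Adamts18 was highest in WT week 2 (1.88), and Adamts13 and Adamts16 did not reach RPKM 1.

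EBs were compared with ESCs over both lines with limma on log2(RPKM + 1), where the spread is how stage and genotype fail to add up in 8 libraries (3 residual degrees of freedom), and no more than 2 libraries stand for ESCs. A gene entered at RPKM 1 or more in at least 2 libraries, which 30 of 46 members did, and a call needed an adjusted p under 0.05 (Benjamini-Hochberg over 13249 genes). Of the 30, 23 were higher in EBs, where 43.9% of all genes tested were, and 4 were lower, where 28.7% were. Of the 23, 13 were under RPKM 1 in both ESC libraries and so entered only through EB libraries in which they were high, and the count of 23 is a description for that reason. With the filter lowered to RPKM above 0 in at least 2 libraries, 25 were higher and 5 lower of 44, beside 35.2% and 23.7% of 17616 genes. A gene could still enter through EB libraries alone. The median log2 difference was 0.77 for these 44 and 0.11 for all genes (1.29 and 0.25 with the filter at RPKM 1). The ESC libraries were also the deepest and had the lowest sums of mesenchyme markers, and the part of depth or of such cells was not tested. Scaling by median ratios moved the all-gene median to -0.02 and the all-gene calls from 5818 higher and 3806 lower to 4607 and 5002, with 22 and 4 members then called.

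Adamts1 had the largest difference, 3.63 on the log2 scale (SE 0.19, adjusted p = 0.000108), followed by Mmp14 at 3.10 (SE 0.18, adjusted p = 0.000125). Timp3 (2.83), Timp2 (2.80), Adamts2 (2.38) and Mmp2 (2.35) came next. The other higher calls were Mmp15 (1.74), Mmp16 (1.66), Mmp19 (1.66), Adamts12 (1.60), Adamts9 (1.56), Mmp12 (1.49), Adamts17 (1.47), Mmp7 (1.43), Adamts15 (1.40), Adamts3 (1.19), Mmp10 (1.15), Adamts6 (1.09), Adamts19 (1.08), Adamts5 (1.03), Adamts4 (0.78), Adamts10 (0.64) and Adamts7 (0.61). The 4 lower calls were Mmp17 (-1.85, SE 0.13, adjusted p = 0.000169), Adamts14 (-1.04), Timp1 (-0.71) and Mmp11 (-0.45). Each difference is a mean over 3 weeks, and single weeks can depart from it. Week 3 values of Timp1 (46.1 and 38.1) lay above those of ESCs (38.0 and 34.3). At week 1, Mmp7 and Mmp10 were listed at 0 in both lines, and Mmp12 was at 0.011 and 0.041, near its ESC values (0.011 and 0.013). Adamts4 at week 1 (0.762 and 0.263) lay below ESCs (0.917 and 1.13). Mmp9 (0.16), Mmp23 (0.48) and Adamts8 (-0.09) were not called.

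Leaving out single libraries changed some of these calls. Without WT ESCs 18 were higher and 2 lower (Timp1 and Mmp17), since Adamts4, Mmp12, Adamts19, Mmp10, Adamts7 and Mmp11 missed the threshold (adjusted p from 0.0628 to 0.255) and Adamts14 no longer entered. Without KO ESCs 16 were higher and 3 lower, Adamts14 did not enter, and Adamts4, Adamts5, Adamts7, Adamts10, Adamts17, Adamts19 and Mmp10 missed it (adjusted p from 0.0555 to 0.235). Adamts4 also missed it without WT week 1 (adjusted p = 0.0702) or WT week 3 (0.0508), and Mmp10 without WT week 1 (0.0573) or WT week 2 (0.0522). Without WT week 3 or without KO week 3, Mmp7 and Mmp10 did not enter and were not called, with 21 higher and 4 lower of 28 in each case. Mmp23 was called without WT week 3 (0.71, adjusted p = 0.00958). With weeks 1 and 2 only, a choice made after the week 3 pluripotency values were seen, 19 were higher and 4 lower of 28.

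KO was compared with WT at each stage by counting members 1.5-fold or more apart on RPKM + 1, among those at RPKM 1 or more in either library. With 1 library per group there is no test. In ESCs 0 of 16 members were higher in KO, where 3.84% of all genes tested were, and 1 was lower (Mmp2), where 2.29% were. The fibroblast and mesenchyme markers, of which 3 and 4 of 10 were at RPKM 1 or more in WT and KO ESCs, summed to 17.9 and 13.0. Of these 10, 2 were lower in KO ESCs (Col1a1, at 5.80 and 2.49, and Thy1, at 9.37 and 6.62) and 8 were higher. The higher ones ran from Twist1 (1.37 and 1.40) and Col1a2 (0.679 and 1.31) down to Lum (0 and 0.0027). Col3a1 (0.053 and 0.077), Postn (0.025 and 0.084) and Dcn (0.027 and 0.0515) were also near 0. The part of MEF RNA in the Mmp2 difference was not tested. At week 1, 3 of 21 were higher (Adamts19 3.54-fold, Adamts17 2.81-fold and Mmp16 2.29-fold, as ratios of RPKM; 8.37% of all genes) and 2 were lower (Mmp2 and Mmp15; 6.22%). The mesenchyme markers (9 of 10 at RPKM 1 or more in each) summed to 110 in WT and 223 in KO at that stage and the smooth muscle markers (4 of 5 in each) to 348 and 778, and their part was not tested.

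At week 2, 1 of 30 members was higher in KO (Mmp27; 10.0% of all genes) and 3 were lower (Mmp12, Mmp15 and Adamts18; 6.42%), Adamts18 by 3.25-fold (2.47 to 4.33). At week 3, 7 of 32 were higher (Mmp3, Mmp7, Mmp10, Mmp23, Timp2, Timp3 and Adamts2; 7.65% of all genes) and 6 were lower (Mmp9, Mmp12, Mmp13, Mmp15, Mmp24 and Adamts4; 7.69%), Mmp24 by 3.70-fold (2.56 to 5.56). The median log2 difference of the members counted was 0.06, 0.13, 0.00 and 0.06 from ESCs to week 3, beside 0.04, 0.01, 0.05 and 0.02 for all genes, so neither direction prevailed. Scaling to an equal RPKM total changed the all-gene counts (higher and lower) from 424 and 253 to 345 and 370 in ESCs, from 968 and 720 to 1078 and 584 at week 1, from 1270 and 814 to 1008 and 1093 at week 2, and from 998 and 1003 to 779 and 1392 at week 3. The member counts became 0 and 1, 3 and 1, 1 and 4, and 7 and 7.

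**Figure D4:**
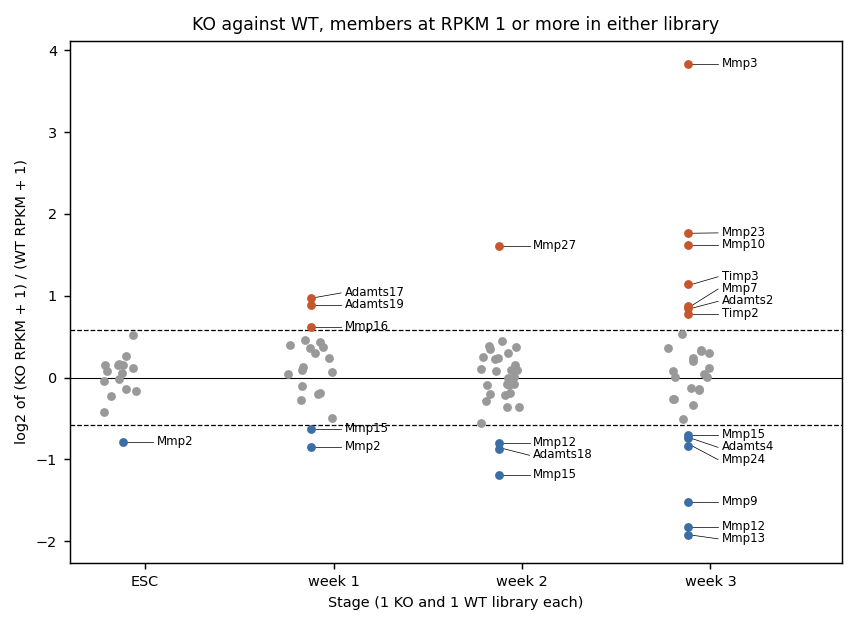
Difference between KO and WT (vertical axis, log2 of the ratio of RPKM + 1) for each member at RPKM 1 or more in either library, at the 4 stages. Orange and blue points are past 1.5-fold (dashed lines), higher and lower in KO, and are named, with 1 in ESCs, 5 at week 1, 4 at week 2 and 13 at week 3.

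Over the 4 stages together, limma called 0 of 30 members higher and 0 lower in KO, where 0% of the 13249 genes were called in either direction, although 3 members and 1984 genes had an unadjusted p under 0.05. Those 3 were Mmp15 (log2 difference -0.74, SE 0.14, adjusted p = 0.133), Mmp2 (-0.52, SE 0.15, adjusted p = 0.233) and Mmp23 (0.72, SE 0.28, adjusted p = 0.322). The KO library was lower at all 4 stages for Mmp2, Mmp15 and Adamts6 (3 of 30, beside 9.50% of all genes) and higher at all 4 for Mmp19, Mmp23 and Adamts9 (3 of 30, beside 14.9%). For Adamts6 the counting interval of the ratio included 1 at each stage. For Mmp19 it did so at each stage but week 2 (1.15 to 1.62). The week 3 differences of Mmp3, Mmp7, Mmp10, Mmp12 and Mmp13 rest on a single pair of libraries.

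Other genes that activate, inhibit or work with these enzymes were taken as a list of 44, all in the table. Past 1.5-fold in KO, 2 were higher and 0 lower of 26 in ESCs, beside 3.84% and 2.29% of all genes. The counts were 3 and 5 of 23 at week 1, beside 8.37% and 6.22%. They were 6 and 6 of 38 at week 2, beside 10.0% and 6.42%, and 5 and 7 of 37 at week 3, beside 7.65% and 7.69%. Plg, the precursor of plasmin, which activates several MMPs, was at 0.0021, 4.31, 9.32 and 6.10 in WT and 0.008, 0.936, 3.88 and 0.134 in KO, lower in KO in every EB library. Ctsk, a collagen-cutting cysteine protease of osteoclasts, was at 0.011, 0.168, 8.70 and 16.7 in WT and 0.048, 0.866, 22.6 and 41.8 in KO, higher in KO at each stage. Ctss, a cysteine protease of macrophages and other antigen-presenting cells, was at 0.024, 0.653, 45.1 and 9.73 in WT and 0.075, 0.381, 18.4 and 4.08 in KO, lower in KO at weeks 2 and 3. All 10 macrophage markers at week 2 and 9 of the 10 at week 3 were lower in KO too.

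Htra1, a secreted serine protease, was at 6.22, 0.621, 14.03 and 19.8 in WT and 19.0, 2.95, 15.8 and 36.6 in KO, higher in KO throughout. A2m, a general protease inhibitor of plasma, was at 17.1, 0.665, 14.9 and 5.34 in WT and 11.7, 0.676, 3.09 and 5.14 in KO. The lines were farthest apart at week 2 for A2m. Pcolce, an enhancer of procollagen C-proteinase, was at 54.6, 8.04, 37.6 and 24.2 in WT and 71.2, 16.6, 47.1 and 43.3 in KO. Plat, a plasminogen activator, was at 1.76, 14.9, 33.5 and 39.1 in WT and 1.41, 8.18, 25.2 and 34.1 in KO, and was lower in KO at each stage. Furin, which activates membrane-type MMPs, was at 10.2, 17.6, 15.7 and 13.0 in WT and 12.6, 27.1, 11.8 and 9.73 in KO. The KO value was higher in ESCs and at week 1 and lower at weeks 2 and 3. Adam15 was at 9.42, 7.98, 10.9 and 7.54 in WT and 10.8, 3.86, 8.79 and 8.73 in KO, and Ctsl, a lysosomal protease, was at 99.2, 668, 922 and 510.0 in WT and 139.9, 563, 604 and 499 in KO. In the limma fit 0 of 38 of these genes were called between genotypes in either direction, and 21 were higher and 8 lower in EBs than in ESCs, beside 43.9% and 28.7% of all genes.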

How the data were processed

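RNA was measured in 8 libraries, 1 per group, with groups taken from the labels. Random hexamers primed cDNA from fragmented poly(A) RNA, without strand marks. Per the labels, the authors used Cufflinks 1.1.0 for RPKM of RefSeq genes, after alignment by TopHat 1.1.4 (with SAMtools 0.1.18 and Bowtie 0.12.7) against mm9. Their deposited unit is log2(RPKM + 1), which was read from the values, and RPKM was recovered from them on a grid of 0.0001. The authors' normalization by length and mapped reads keeps no counts. Members and lists were chosen with earlier results of these data known.

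Depth was estimated from the smallest step of RPKM times length (GENCODE M1, 19738 genes with a length, 5676 used for the step). Intervals are exact binomial (Clopper-Pearson, 95%) on estimated reads and cover counting error only. The length was that of the longest transcript of a gene. Where RPKM rests on a shorter transcript, reads are overstated and intervals too narrow. This may hold for Mmp12, whose week 1 values gave 2.3 (WT) and 2.4 (KO) estimated reads, not whole numbers. It may also hold for Mmp27, at 1.2 estimated reads in KO week 1. Differences used a pseudocount of 1, a minimum RPKM of 1 and a 1.5-fold threshold. Effects over stages were fitted in R 4.3.3 by limma 3.58.1 (terms for genotype and stage, mean trend, Benjamini-Hochberg adjusted p under 0.05), checked on simulated data. For simulated log2 changes of 1 and 2 between genotypes, present at all 4 stages, 64% and 78% of 100 genes each were called, with 8 false calls. The check held no change at a single stage. Its spread was drawn separately for each gene and library, so it held no effect that genes of a library share. Its rates therefore need not hold for these libraries. P-values measure only the spread between these libraries. Python 3.11.15 ran the rest, with biopython 1.88, matplotlib 3.10.9, scipy 1.17.1, pandas 2.3.3 and numpy 2.4.6.

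Named with 8 values were members at RPKM 5 or more, those limma called and those past 1.5-fold in 1 direction at 2 or more stages. Other members at RPKM 1 or more were named with their highest library, and of the pathway list the 4 genes with the largest difference per stage at RPKM 5 or more, of which 1 is not reported here. The chromosome 9 run and its promoter motif were chosen after the values were seen. Alternatives were a pseudocount of 0.1, no filter on low values, median-ratio scaling, an equal RPKM total, no variance trend, leaving out each stage or library, and weeks 1 and 2 only. In the limma fit, no filter meant RPKM above 0 in at least 2 libraries. RefSeq promoters were found for 32 of 46 members.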

Additional observations from a re-analysis of the deposited data

How the results depend on the processing

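Of the recomputed counts of members, 73 stayed within 1.5 times the value reported and 5 did not. With a pseudocount of 0.1 the members higher in KO were 1 in ESCs (Mmp14) in place of 0, and 5 at week 1 (Adamts5 and Mmp28 added) in place of 3. With no filter on low values 2 were higher at week 2 (Mmp7 added) in place of 1. With an equal RPKM total 1 was lower at week 1 (Mmp2) in place of 2. Leaving out single libraries, 2 to 4 members were lower in EBs and 16 to 23 higher. Of the recomputed limma effects, 409 kept direction and side of the threshold, 22 lost a call, 1 gained one and 5 changed sign, none of which was a call. Mmp9 (EB minus ESC, 0.16) became -0.026 with median-ratio scaling and -0.34 with weeks 1 and 2 only, and ranged from -0.226 to 0.538 without single libraries. Adamts8 (-0.09) ranged from -0.244 to 0.063. Adamts4 also lost its call with a pseudocount of 0.1 (adjusted p = 0.0673), no filter (0.0556), median-ratio scaling (0.0681) and weeks 1 and 2 only (0.269), and Adamts7 with the last (0.052). Without the ESC stage limma called 2 genes higher and 4 lower in KO, with 0 members among them. The cause of these changes was not tested. Of the recomputed stage differences, 75 stayed within and 17 moved beyond their counting interval, all at a pseudocount of 0.1 or an equal RPKM total, and none changed sign. No paired analysis was possible because of the lack of replicates (1 library per group), other than the pairing of WT and KO by stage that the limma fit already holds. Depth limits the KO EB libraries most, where 3 reads of Mmp3 equal RPKM 0.0881 to 0.131, against 0.00945 in KO ESCs.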
